A study of Homo sapiens with 4 samples.

Results

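The respiratory chain subunits encoded in the nucleus were followed in Huh7 and HepG2 cells treated with a control siRNA or an siRNA against COP1. Members were chosen by gene symbol and not by any measured change: symbols of the NDUFA, NDUFB, NDUFC, NDUFS and NDUFV families, SDHA to SDHD, the UQCR genes and CYC1, the families COX4 to COX8, and the ATP5 genes, leaving out names with a hyphen and pseudogenes, with a TPM, a level scaled for transcript length and library total, of at least 1 in 1 library or more. Of the 46427 genes in the tables, 79 met this rule, with 36 members in complex I, 4 in complex II, 10 in complex III, 11 in complex IV and 18 in complex V.

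The respiratory chain sits in the inner mitochondrial membrane. Complex I takes electrons from NADH and complex II takes them from succinate, complex III passes them to cytochrome c, and complex IV hands them to oxygen. The proton gradient built on the way drives complex V, the ATP synthase. Most subunits are encoded in the nucleus and imported, and a few at the core of complexes I, III, IV and V are encoded in mitochondrial DNA. Hepatocytes depend on this chain for the energy that their synthetic work requires. Several complex IV subunits exist as isoforms, one found widely and another in heart, muscle, lung or testis.

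Huh7 and HepG2 are established human liver cancer lines, and the study calls both hepatocellular carcinoma. Each line was transfected at 20 nM with NC-siRNA, a negative control, or with COP1-siRNA, and harvested 48 h later. The labels call the genotype wild type (WT) for the former and COP1 Knockdown for the latter. There was 1 library for each of the 4 combinations of line and siRNA. No difference within a line, or between the lines under 1 siRNA, has a replicate check or a p-value. All 4 libraries carry the same batch label. One siRNA sequence was used against COP1, so an effect of COP1 loss and an effect of that sequence on other transcripts cannot be told apart. In whole cultures, fewer cells of a kind and less RNA per cell cannot be told apart either.

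TPM is per length, so levels of different genes may be set side by side. The tables hold no read counts, so the depth is unknown and no interval could be given for a TPM. The coverage column showed relative depth only: the ratio of the COP1-siRNA library to the NC-siRNA library in depth was 1.18 for Huh7 and 1.25 for HepG2. COP1 itself, an E3 ubiquitin ligase gene, was at 19.7 TPM in the Huh7 control and 6.18 TPM after COP1-siRNA, and at 26.9 and 16.1 TPM in HepG2, so it was past 2-fold lower in Huh7 only. Of 8 hepatocyte markers, all reached 1 TPM in at least 1 library, and their summed level was 20103 and 17978 TPM in Huh7 against 2644 and 3047 TPM in HepG2. With COP1-siRNA their median change on the log2 scale was −0.11 in Huh7 and 0.41 in HepG2, whose part in the members' changes was not tested. The leukocyte marker PTPRC was listed at 0 in all 4 libraries, and the fibroblast and endothelial markers COL1A1, COL1A2 and PECAM1 together with it summed to between 2.35 and 7.79 TPM.

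The 79 members were abundant transcripts. Together they held 22715 TPM in Huh7 with NC-siRNA, 22186 TPM in Huh7 with COP1-siRNA, 24820 TPM in HepG2 with NC-siRNA and 25023 TPM in HepG2 with COP1-siRNA, which is 2.27%, 2.22%, 2.48% and 2.50% of each library. The median member was at 225, 216, 260 and 268 TPM in the same order. Complex I held 36.7%, 37.1%, 34.3% and 34.4% of the members' TPM, complex V between 31.4% and 32.7%, complex IV between 19.8% and 21.0%, complex III between 8.53% and 9.67%, and complex II between 2.47% and 3.01%.

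**Figure D1:**
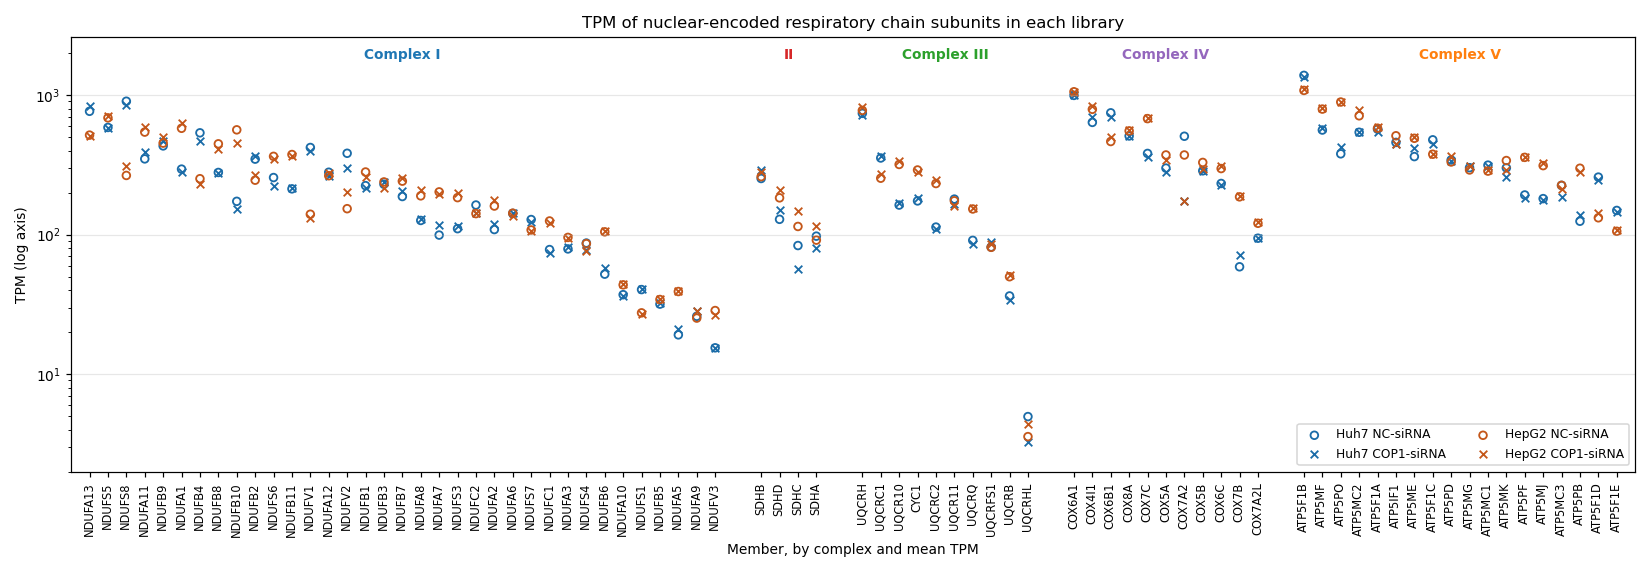
TPM of 78 of the 79 members (vertical log axis) in the 4 libraries, with members on the horizontal axis ordered by complex and by mean TPM. Circles are NC-siRNA and crosses COP1-siRNA, blue for Huh7 and orange for HepG2; circle and cross lie together for most members, and COX7A2 is the member of complex IV whose crosses fall well under its circles in both colours.

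In complex V, every member was above 100 TPM in all 4 libraries. ATP5F1B, the catalytic beta subunit, was the highest member of all, at 1385, 1358, 1080 and 1110 TPM in Huh7 with NC-siRNA, Huh7 with COP1-siRNA, HepG2 with NC-siRNA and HepG2 with COP1-siRNA. All following sets of 4 values keep this order of libraries. In complex IV the highest was COX6A1 at 995, 996, 1057 and 1054 TPM, and in complex III it was UQCRH, the hinge protein, at 740, 721, 777 and 822 TPM. SDHB, the iron-sulfur subunit, led complex II at 252, 291, 260 and 281 TPM. The leading member of complex I differed between the lines: NDUFS8, an iron-sulfur subunit of the core, was highest in Huh7 at 904 and 851 TPM, and NDUFS5 was highest in HepG2 at 687 and 712 TPM.

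Levels differed widely among subunits of 1 enzyme. The 7 core subunits of complex I encoded in the nucleus, which enter the complex in equal number, ranged in Huh7 with NC-siRNA from 40.4 TPM for NDUFS1 to 904 TPM for NDUFS8. In HepG2 with NC-siRNA they ranged from 27.5 TPM for NDUFS1 to 265 TPM for NDUFS8. NDUFV3, an accessory subunit, was the lowest member of complex I in Huh7 at 15.4 and 15.4 TPM, and stood at 28.5 and 26.6 TPM in HepG2.

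Isoforms of other tissues were at or near 0. COX4I2, COX6A2, COX7A1, COX7B2 and COX8C were listed at 0 in all 4 libraries, against 637, 693, 791 and 831 TPM for COX4I1 and 509, 511, 554 and 564 TPM for COX8A. COX6B2, a testis form, was listed at 0 in 3 libraries and at 0.138 TPM in HepG2 with COP1-siRNA, while its partner COX6B1 was at 746, 694, 465 and 505 TPM. ATP5MGL reached 0.126 TPM in Huh7 with COP1-siRNA and was listed at 0 elsewhere. These 7 genes matched the symbol rule and lay under its limit of 1 TPM, and the member nearest above the limit was UQCRHL, an intronless copy of UQCRH, at 4.96, 3.28, 3.56 and 4.36 TPM. UQCRHL is a near copy of UQCRH, whose level was far higher, so how reads were divided between them is uncertain.

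The c ring of ATP synthase is built from 1 protein made by 3 genes. ATP5MC2 gave most of it in every library, with 50.1%, 52.4%, 58.2% and 60.8% of the summed c subunit TPM. ATP5MC1 gave 29.1%, 29.7%, 23.4% and 22.5%, and ATP5MC3 gave 20.8%, 17.9%, 18.5% and 16.6%. The order of the 3 genes was the same in all 4 libraries.

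The comparison of COP1-siRNA with NC-siRNA within each line addresses which transcripts differ after this siRNA. Each change is the log2 ratio of TPM + 1 under COP1-siRNA to TPM + 1 under NC-siRNA, a scale that understates changes of low genes, and 2-fold was the threshold. COX7A2 was the only member past 2-fold, and it was lower with COP1-siRNA in both lines. In Huh7, 1 of 79 members was past 2-fold lower and 0 were past 2-fold higher, against 0.446% lower, 0.638% higher and 1.08% in either direction among the 13000 genes tested. In HepG2 the counts were again 1 lower and 0 higher, against 0.394% lower, 0.54% higher and 0.934% in either direction among 14456 genes. The median over members was −0.01 in Huh7 and 0.02 in HepG2, beside −0.00 and −0.01 over all genes tested.

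**Figure D2:**
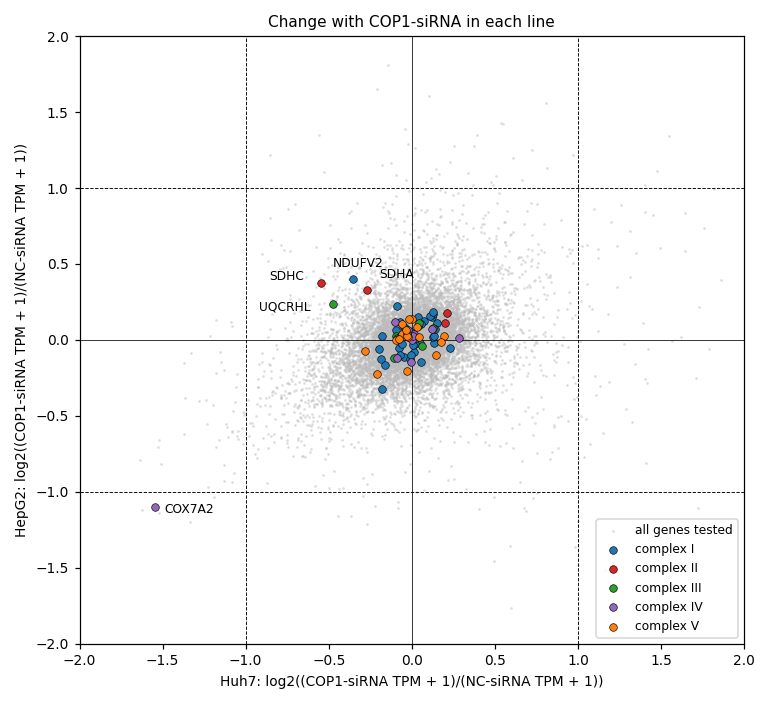
Change with COP1-siRNA in Huh7 (horizontal) and HepG2 (vertical), both as log2((COP1-siRNA TPM + 1)/(NC-siRNA TPM + 1)), for the 79 members coloured by complex and for all genes tested in both lines in grey, genes beyond the axes not drawn. Dashed lines mark 2-fold; COX7A2 at −1.54 and −1.10 stands alone among the members, and 4 named members lie to the upper left with opposite signs in the lines.

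COX7A2 encodes the widely expressed form of subunit VIIa of cytochrome c oxidase, a small membrane subunit on the face where complex IV meets its partners. Its TPM was 507 in the Huh7 control and 173 after COP1-siRNA, and 372 and 173 in HepG2. Both COP1-siRNA libraries were thus under both controls, and 34.2% of the control level was left in Huh7 and 46.6% in HepG2. The log2 changes were −1.54 and −1.10, the 6th lowest of 13000 genes in Huh7 and the 34th lowest of 14456 in HepG2. For COP1 itself, 31.4% of the control level was left in Huh7 and 59.9% in HepG2, so in HepG2 COX7A2 fell further than the target. COX7A2 is one of the genes that the study picked from these same libraries, so its inclusion here gives no independent evidence of the change.

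The gene lies on chromosome 6 of GRCh38 from 75237675 to 75250298 on the minus strand. Among complex IV members it ranked 5th of 11 by TPM in Huh7 with NC-siRNA and 9th with COP1-siRNA, and 7th and 10th in HepG2. Read from depth-scaled coverage in place of TPM, its changes were −1.51 and −1.06. COX7A2 was higher in Huh7 than in HepG2 with NC-siRNA by 0.45 on the log2 scale, and with COP1-siRNA the difference was −0.00.

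The nearest relatives of COX7A2 were close to their controls or listed at 0. COX7A2L, a paralog that joins complexes III and IV into supercomplexes, was at 94.2, 94.9, 121 and 124 TPM, with changes of 0.01 and 0.04. COX7A1, the heart and muscle form, was listed at 0 in all libraries. COX7B and COX7C, which encode the neighbouring subunits VIIb and VIIc, were at 58.8, 71.8, 186 and 188 TPM and at 382, 361, 678 and 681 TPM. COX7B had the largest positive change of any member in Huh7, 0.28, and in HepG2 its change was 0.01.

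The summed TPM of complex IV went from 4749 to 4392 in Huh7, a ratio of 0.925, and from 5223 to 5072 in HepG2, a ratio of 0.971. Without COX7A2 the sums were 4242 and 4219 TPM in Huh7 and 4851 and 4898 TPM in HepG2, with ratios of 0.995 and 1.01. The other 10 members of complex IV had changes between −0.14 and 0.28.

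The 3′ UTR of COX7A2 is printed around 1 short sequence, AGCAGTC. It was chosen with earlier results of these data known, COX7A2 among them, so its presence in COX7A2 was not a free observation. The COP1-siRNA strands that the study lists hold neither these bases nor their reverse complement, and no other basis for the choice is given here. Among 1 transcript per gene from GENCODE 29 on GRCh38, 3 of 79 members (3.80%) had AGCAGTC in the 3′ UTR, against 8.84% of the 12888 other genes tested, and the median 3′ UTR was 196 bases in members and 998 bases in the others. The 3 windows follow on the transcribed strand with the 7 bases in capitals.
COX7A2 (chr6:75237786-75237812, minus strand): ccaccaataaAGCAGTCtttaccatgc
ATP5MC3 (chr2:175177257-175177283, minus strand): attgagaaagAGCAGTCaccaaagttc
NDUFA9 (chr12:4690892-4690918, plus strand): gtgaggaggaAGCAGTCattcatgctg

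The 3 carriers had different values. ATP5MC3, one of the c subunit genes, was at 225, 185, 226 and 214 TPM, with changes of −0.28 and −0.08, the lowest of complex V in Huh7. NDUFA9, a peripheral arm subunit of complex I, was at 26.0, 28.5, 25.2 and 28.5 TPM, with changes of 0.13 and 0.17. The copy lies 128 bases into the 255-base 3′ UTR of COX7A2, 1015 bases into the 2030 bases of ATP5MC3 and 3794 bases into the 7209 bases of NDUFA9. A match of letters is a description and not a binding site.

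The members other than COX7A2 stayed near their control levels. Changes between −0.25 and 0.25 were found for 72 of 79 members (91.1%) in Huh7 and 74 of 79 (93.7%) in HepG2. The shares were 70.8% and 74.5% over all genes tested, and 83.8% and 86.4% over genes within the 10th to 90th percentile of the members' mean TPM. The sign of the change was the same in both lines for 42 members, 17 lower and 25 higher, and opposite for 37, against the same sign for 60.2% of the 11970 genes tested in both lines.

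In complex I, the 36 members had a median change of 0.01 in Huh7 and 0.02 in HepG2, and none passed 2-fold. The flavoprotein subunit NDUFV1, which binds NADH, was at 421, 401, 140 and 131 TPM, with changes of −0.07 and −0.10. NDUFB10, an accessory subunit of the membrane arm, had the lowest complex I change in HepG2: it was at 173, 153, 564 and 451 TPM, with changes of −0.18 and −0.32. NDUFA7 had the largest positive change of complex I in Huh7, 0.23, at 99.2, 117, 202 and 195 TPM, and its change in HepG2 was −0.05.

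NDUFV2, a further flavoprotein-module subunit, had opposite signs in the lines. Its level was 383 TPM in the Huh7 control and 299 TPM after COP1-siRNA, and 153 and 203 TPM in HepG2. Its changes of −0.35 and 0.40 were the lowest of complex I in Huh7 and the highest of all members in HepG2. In depth-scaled coverage the same changes were −0.05 and 0.05.

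In complex II, succinate dehydrogenase, 2 of 4 members had opposite signs in the lines. SDHC, a membrane anchor, was at 83.5, 56.9, 114 and 149 TPM. SDHA, the flavoprotein that oxidises succinate, was at 97.5, 80.8, 91.3 and 115 TPM. The changes were −0.54 and 0.37 for SDHC and −0.27 and 0.33 for SDHA, each with opposite signs in the lines. SDHB was at 252, 291, 260 and 281 TPM and SDHD, the second anchor, at 129, 149, 183 and 208 TPM, with changes of 0.20 and 0.11 for SDHB and 0.21 and 0.18 for SDHD. All 4 members were above their control in HepG2, and 2 of 4 were in Huh7.

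The values of SDHC, SDHA and NDUFV2 depended on which column was read. In depth-scaled coverage, SDHC changed by 0.06 in Huh7 and −0.05 in HepG2, and SDHA by −0.07 and 0.03. The scaled coverage equalled the TPM within 5% for 36 or 37 members in each library. For SDHC the ratio of scaled coverage to TPM was 0.213, 0.327, 0.228 and 0.169 in the 4 libraries, so its TPM and its coverage did not move together. SDHC, SDHA and NDUFV2 each have expressed pseudogenes that can share reads, namely SDHCP5, the 4 genes SDHAP1 to SDHAP4, and NDUFV2P1. The part of these copies in the difference was not tested.

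**Figure D3:**
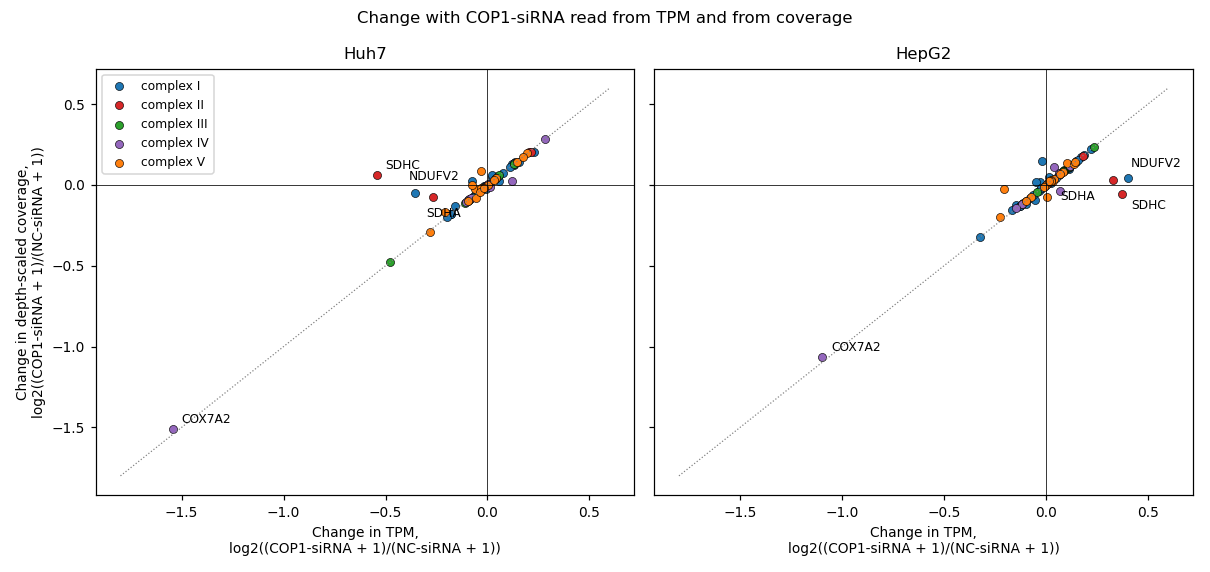
Change with COP1-siRNA in depth-scaled coverage (vertical) against the change in TPM (horizontal), both as log2((COP1-siRNA + 1)/(NC-siRNA + 1)), for the 79 members in Huh7 (left) and HepG2 (right). Most members lie near the dotted line of equal change, COX7A2 included, while SDHC, SDHA and NDUFV2 lie off it near a coverage change of 0.

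Complex III and complex V stayed close to their controls. The 10 members of complex III had a median change of −0.04 in Huh7 and 0.08 in HepG2, with UQCRHL at −0.48 and 0.23 on its few TPM. UQCRFS1, the Rieske iron-sulfur protein, was at 81.4, 89.1, 81.1 and 85.6 TPM, and CYC1, cytochrome c1, at 174, 182, 290.5 and 282 TPM. The 18 members of complex V had medians of −0.03 and 0.02. ATP5MK, a small subunit at the dimer interface, was the lowest of complex V in HepG2 and was under its control in both lines, at 301 and 260 TPM in Huh7 and 340 and 290 TPM in HepG2, with changes of −0.21 and −0.23. ATP5ME, another membrane subunit, had the largest positive change of complex V in Huh7, 0.19, and was at 362, 415, 490 and 498 TPM.

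Across both lines, COP1-siRNA was tested with limma on log2(TPM + 1), with the lines as the samples of each siRNA and 1 residual degree of freedom. No gene of 15486 had an adjusted p under 0.05, and 1446 (9.34%) had an unadjusted p under 0.05. COX7A2 was the only member among the latter, with a change of −1.32 ± 0.15 (SE), lower in 2 of 2 lines, and an adjusted p of 0.387 by limma. With FPKM in place of TPM, limma called 59 genes, and COX7A2 was the only member among them, with an adjusted p of 0.0067. Over all the alternatives run, its adjusted p by limma ran from 0.0067 to 0.653. The call for COX7A2 thus rested on the column used.

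The comparison of Huh7 with HepG2 under 1 siRNA shows how the chain's transcripts differ between the lines. Differences are log2((Huh7 TPM + 1)/(HepG2 TPM + 1)). Most genes were lower in Huh7 on this scale, with a median of −0.37 for the 15055 genes tested with NC-siRNA and −0.35 for 15126 with COP1-siRNA, and the top 10 genes took 13.2% and 14.6% of all TPM in Huh7 against 8.02% and 8.05% in HepG2. The differences and 2-fold counts below are not shifted by these medians unless stated, so directions between the lines are to be read beside them. The median member was at −0.22 with NC-siRNA and −0.26 with COP1-siRNA, which is 0.15 and 0.09 above all genes tested, and both medians turned positive, 0.12 and 0.07, when TPM was rescaled by median-of-ratios size factors. With NC-siRNA 49 and with COP1-siRNA 47 of the 79 members were above the median of all genes. The side depended on the genes compared: with no minimum TPM the members' median was at −0.0798 and −0.144 relative to all genes, with 36 and 32 members above. Genes within the 10th to 90th percentile of the members' mean TPM had medians of −0.09 and −0.11, so the members' medians were lower than those of genes of like level.

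Fewer members than genes at large were past 2-fold between the lines. With NC-siRNA, 4 members were past 2-fold higher in Huh7 and 6 past 2-fold lower, 12.7% in all, against 14.7% higher, 27.9% lower and 42.6% in either direction among all genes tested. With COP1-siRNA the counts were 3 higher and 8 lower, against 14%, 26.0% and, in either direction, 40.1%. All genes tested include many of low TPM. Among the genes of like level, 31.5% of 1966 were past 2-fold with NC-siRNA and 29.6% of 1966 with COP1-siRNA. The 2 comparisons use different libraries, and across the 79 members their differences had Pearson's r of 0.949 and Spearman's rho of 0.938, a description across genes, which are not independent replicates.

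**Figure D4:**
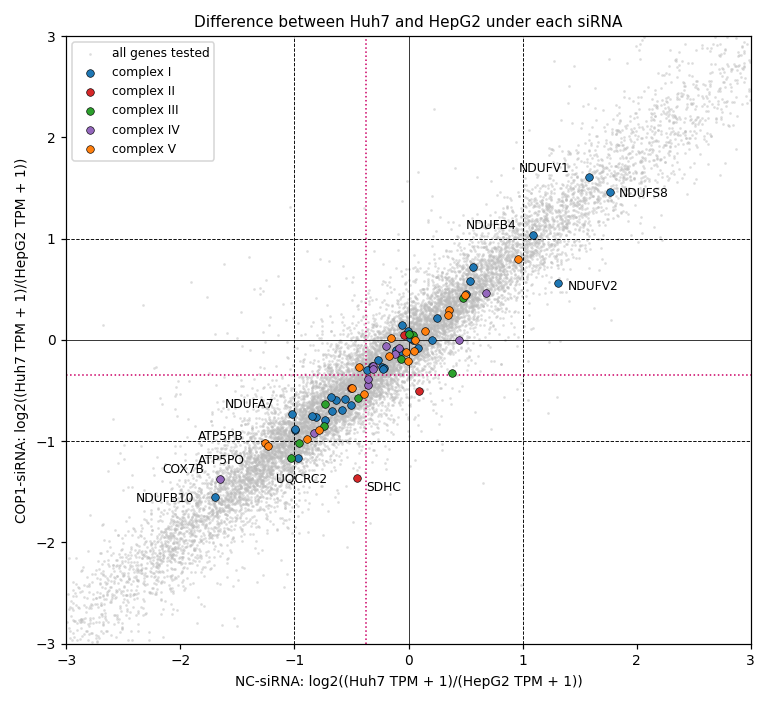
Difference between Huh7 and HepG2 with NC-siRNA (horizontal) and with COP1-siRNA (vertical), as log2((Huh7 TPM + 1)/(HepG2 TPM + 1)), for the 79 members coloured by complex and for all genes tested in both in grey, genes beyond the axes not drawn. Dashed lines mark 2-fold and dotted lines the medians of all genes, −0.37 and −0.35; on this scale NDUFS8, NDUFV1 and NDUFB4 are past 2-fold higher in both comparisons, and SDHC and NDUFV2 lie off the diagonal.

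On the TPM scale the members past 2-fold higher in Huh7 were in complex I, while with median-of-ratios scaling COX6B1 of complex IV also passed with NC-siRNA, at 1.02, NDUFA13 with COP1-siRNA, at 1.05, and ATP5F1D of complex V in both, at 1.30 and 1.13. NDUFS8 was at 904 and 851 TPM in Huh7 and 265 and 309 TPM in HepG2, with log2 differences of 1.76 and 1.46. NDUFV1 was at 421 and 401 TPM against 140 and 131 TPM, with differences of 1.58 and 1.61. NDUFB4, an accessory subunit of the membrane arm, was at 537 and 472 TPM against 252 and 230 TPM, with differences of 1.09 and 1.03. For these 3 genes both Huh7 libraries stood above both HepG2 libraries, and with FPKM the NDUFB4 difference with NC-siRNA was 0.99, just under 2-fold. NDUFV2 was past 2-fold with NC-siRNA, at 1.31, and not with COP1-siRNA, at 0.56, and read from coverage its differences were 0.96 and 0.86.

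The members past 2-fold lower in Huh7 in either comparison were spread over complexes I to V. NDUFB10 was at 173 and 153 TPM in Huh7 against 564 and 451 TPM in HepG2, with differences of −1.70 and −1.56. COX7B was at 58.8 and 71.8 TPM against 186 and 188 TPM, with differences of −1.65 and −1.38. These were the lowest members in both comparisons. In complex V, ATP5PB and ATP5PO of the peripheral stalk were lower in both, with 125 and 138 TPM against 299 and 280 TPM for ATP5PB and 379 and 428 TPM against 892 and 885 TPM for ATP5PO. The differences were −1.26 and −1.02 for ATP5PB and −1.23 and −1.05 for ATP5PO, and with median-of-ratios scaling none of these 4 values passed 2-fold.

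UQCRC2, a core protein of complex III, was at 113 and 110 TPM in Huh7 against 232 and 247 TPM in HepG2, with differences of −1.03 and −1.16, and −0.69 and −0.84 with median-of-ratios scaling. Its partner UQCRC1 was at 354 and 365 TPM against 254 and 274 TPM, with 0.48 and 0.41, so the 2 core proteins had opposite signs. NDUFA7 passed 2-fold with NC-siRNA only, at −1.02 against −0.74, and NDUFA1, UQCR10 and SDHC passed it with COP1-siRNA only. The values of NDUFA1 were −0.97 and −1.16, those of UQCR10 −0.96 and −1.01, and those of SDHC −0.45 and −1.37. With median-of-ratios scaling NDUFA7, NDUFA1 and UQCR10 passed it in neither. SDHC was at −0.41 with COP1-siRNA when read from coverage. In all, 5 members were past 2-fold lower and 3 past 2-fold higher under both siRNAs, against 23.6% and 12.8% of the 14695 genes tested in both.

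Within ATP synthase the parts differed. Of the 5 members of the F1 head, 4 were above 0 in both comparisons, with medians of 0.36 and 0.29. Of the 4 members of the peripheral stalk, 3 were below 0 with NC-siRNA and 4 with COP1-siRNA, with medians of −1.06 and −0.995. ATP5F1D, the delta subunit of the head, was the highest of complex V, at 258 and 248 TPM in Huh7 against 132 and 142 TPM in HepG2, with differences of 0.96 and 0.80. In the stalk, ATP5PD stood apart at 0.05 and −0.11. Between head and stalk, the c ring had medians of −0.00 and −0.21 and the membrane part −0.43 and −0.26. The inhibitor ATP5IF1 was at −0.16 and 0.02. Relative to the median of all genes the head was at 0.73 and 0.64 and the stalk at −0.69 and −0.65.

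A limma fit with the siRNAs as the samples of each line called 46 of the 79 members (58.2%), against 76.4% of all 15486 genes, with 1 residual degree of freedom. Of these, 12 were higher and 34 lower in Huh7. The higher ones were 26.1% of the members called, against 34.5% of all genes called. Of all 15486 genes tested, 26.3% were called higher and 50.0% lower. With median-of-ratios scaling the member calls were 26 higher and 19 lower, 57% of members against 73.8% of all genes. The higher ones were then 57.8% of the members called, against 47.3% of all genes called. Among the clearest were NDUFV1 at 1.60 ± 0.10 (SE) with an adjusted p of 0.00032 by limma and NDUFB10 at −1.63 ± 0.11 (SE) with an adjusted p of 0.000348 by limma, each of 1 direction under 2 of 2 siRNAs. The 2 libraries of a line are not replicate cultures of 1 condition. The error behind the p-values and SE is how far the line difference varied between the 2 siRNAs. This spread was moderated by limma over all genes, so each p-value and SE rests on other genes as well.

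Members were also set beside their neighbours on the chromosome. NDUFV1 (chromosome 11, 67606936 to 67612554, plus strand) and NDUFS8 (68030681 to 68036644, plus strand) lie 418127 bases apart. Within 1 Mb of either gene, 31 of 47 other genes tested (66.0%) were also past 2-fold higher in Huh7 with NC-siRNA and 3 were past 2-fold lower, with a median of 1.27. With COP1-siRNA 34 of 48 (70.8%) were past 2-fold higher, with a median of 1.47. The 2 members with the largest positive line difference thus lay in a stretch of chromosome 11 where most neighbours within 1 Mb were also higher in Huh7. Within 3 Mb the medians with NC-siRNA were 0.66 for 129 genes around NDUFV1 and 0.71 for 121 around NDUFS8. For NDUFB4 on chromosome 3, the median of 10 neighbours was 0.58 with NC-siRNA.

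Members lower in Huh7 also lay among lower neighbours in several cases. On the X chromosome, COX7B, NDUFA1 and NDUFB11 were at −1.65, −0.97 and −0.81 with NC-siRNA, beside a median of −1.15 for the 510 other genes tested there. On chromosome 21, ATP5PO, ATP5PF and NDUFV3 were at −1.23, −0.89 and −0.85, beside −0.79 for 190 others. All 6 of these genes were under the median of all genes. ATP5PF overlaps GABPA on the other strand, and GABPA, which encodes a transcription factor of respiratory genes, was at 11.7, 11.5, 45.5 and 40.2 TPM. On chromosome 16, NDUFB10 and UQCRC2 were at −1.70 and −1.03, beside −0.72 for 689 others. COX4I1, also there, was at −0.31, above that median and the median of all genes.

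Other members stood apart from their neighbours within 1 Mb, by an amount that depended on the window. ATP5PB was at −1.26 while its 10 neighbours had a median of −0.32, and the 59 within 3 Mb had −0.66. ATP5MC3 was at −0.00 beside a median of −1.51 for 22 neighbours, and −0.83 for 42 within 3 Mb. SDHA was at 0.09 beside −1.21 for 19 neighbours and −1.22 for 25 within 3 Mb. For NDUFA5, a peripheral arm subunit at −0.99, the median turned from 0.66 over 5 neighbours to −0.56 over 12 within 3 Mb. Across the 79 members, the line difference with NC-siRNA and the median of the genes within 1 Mb had Pearson's r of 0.589 and Spearman's rho of 0.464, and within 3 Mb 0.679 and 0.595. With COP1-siRNA the values were 0.639 and 0.537 within 1 Mb. These describe genes measured in the same libraries, and some members share neighbours. Gene copy number was not measured here.

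**Figure D5:**
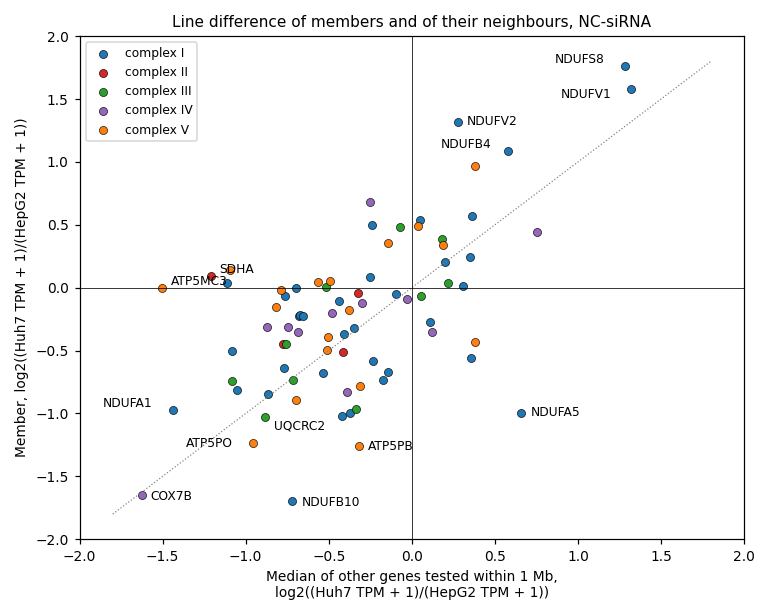
Line difference of each member with NC-siRNA (vertical) against the median of the other genes tested within 1 Mb (horizontal), both as log2((Huh7 TPM + 1)/(HepG2 TPM + 1)), coloured by complex, with the dotted line marking equality. NDUFS8 and NDUFV1 at the upper right and COX7B at the lower left lie near their neighbours, while NDUFB10, ATP5PB, NDUFA5, ATP5MC3 and SDHA lie away from them.

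Promoters of the members were read from RefSeq on GRCh38.p14, 250 bases before to 50 bases after each annotated start, with 78 promoters for 65 of the 79 members. The 6 motifs below were searched on both strands, and none of their 131 matches overlapped a match of another motif. The NRF1 motif, GCGCA and GCGC with any 1 base between, was in 20.5% of the members' promoters against 9.64% of the 16696 promoters of other genes tested, the YY1 motif AAGATGGC in 16.7% against 4.41%, and the ETS motif CCGGAAG in 28.2% against 16.3%. The SP1 motif GGGGCGGGG was in 15.4% against 24.6%, CCAAT in 33.3% against 34.8%, and TATAAA in 7.69% against 6.70%. COX7A2 was not among the members with a match to any of the 6, which also leave out members with no promoter read.

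NRF1 and YY1 matches are shown for members past 2-fold between the lines, since these carry the line difference. NRF1 is shown in NDUFB4 (the match nearest its start), ATP5PO and UQCR10, and YY1 in ATP5PB and NDUFA7. ATP5PO also had a YY1 match, which is not printed. For the other members past 2-fold, no match to either motif was found or no promoter was read. Each match shown is printed 5′ to 3′ on the strand of its gene with the motif in capitals. In ATP5PO and ATP5PB the motif reads on the other strand.
NDUFB4 (chr3:120596318-120596347, plus strand): cctcagaatcGCGCAGGCGCaattgtgccc
ATP5PO (chr21:33915809-33915838, minus strand): acgccaacgcGCGCGTGCGCccttgcgcgt
UQCR10 (chr22:29767351-29767380, plus strand): gtcggccccaGCGCAGGCGCggtggcgcga
ATP5PB (chr1:111449452-111449479, plus strand): cttgtgagcgGCCATCTTggtcctgccc
NDUFA7 (chr19:8321344-8321371, minus strand): tcgcggacggAAGATGGCgtccgccacc

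The same NRF1 motif stood in promoters of genes with opposite line differences. NDUFB4 was higher in Huh7 by 1.09 with NC-siRNA, and ATP5PO and UQCR10 were at −1.23 and −0.96. The 16 members with the NRF1 motif had a median line difference of −0.13 with NC-siRNA, and the 49 with a promoter and without it −0.23. With COP1-siRNA against NC-siRNA, the medians with and without the motif were 0.04 and −0.02 in Huh7 and 0.07 and 0.01 in HepG2. For YY1 the median line difference with NC-siRNA was −0.16 in the 12 members with the motif and −0.23 in the 53 without it. Of the motifs searched, TATAAA had the widest split, −0.96 in 6 members with it and −0.17 in 59 without it. These are descriptions of letters in a window and of medians.

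Other genes of the pathway were read from lists. Of 51 assembly factors, which build the complexes and are not part of them, 0 were past 2-fold with COP1-siRNA in either line. Among all genes tested, 1.08% were in Huh7 and 0.934% in HepG2. The medians of the list were 0.02 and −0.02. The nearest to the threshold was CMC2, a complex IV assembly factor, at 15.03 TPM in the HepG2 control and 30.0 TPM after COP1-siRNA, a change of 0.95, and its change in Huh7 was 0.36. Between the lines, 3 assembly factors were past 2-fold higher in Huh7 with NC-siRNA (ACAD9, SDHAF2 and SURF1) and 11 were past 2-fold lower, with a median of −0.44. These are 5.88% and 21.6% of the list, against 14.7% and 27.9% of all genes tested, and the median is close to the −0.37 of all genes. SDHAF3 had the lowest difference with NC-siRNA, −1.74, at 19.1 and 25.8 TPM in Huh7 against 66.0 and 70.6 TPM in HepG2.

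Of 10 regulators of respiratory genes, 0 were past 2-fold with COP1-siRNA, against 1.08% of all genes tested in Huh7 and 0.934% in HepG2. Between the lines 1 of 10, GABPA, was past 2-fold lower in Huh7 under both siRNAs, at −1.87 and −1.72. Among all genes tested in both comparisons, 23.6% were. The coactivator gene PPARGC1A was low in all libraries, at 3.74, 2.87, 2.15 and 2.34 TPM. TFAM, which packages mitochondrial DNA, was at 49.2, 49.7, 83.6 and 83.3 TPM. The mobile electron carrier gene CYCS was at 150, 142, 136 and 141 TPM, with no value past 2-fold.

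Subunits with symbols outside the rule were read as well. NDUFAB1, the mitochondrial acyl carrier protein within complex I, was at 171 and 177 TPM in Huh7 against 400 and 405 TPM in HepG2, with differences of −1.22 and −1.19. COXFA4, long named NDUFA4 and now counted with complex IV, was at 183, 197, 126 and 128 TPM. Neither was past 2-fold with COP1-siRNA.

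The 13 subunits encoded in mitochondrial DNA summed to 106956 and 127160 TPM in Huh7 and 71252 and 71807 TPM in HepG2, which is 10.7%, 12.7%, 7.13% and 7.18% of each library. With COP1-siRNA, all 13 were above control in Huh7, with a median change of 0.21, and 9 of 13 were in HepG2, with a median of 0.02; none was past 2-fold. COX1, the catalytic subunit of complex IV, was at 13642 TPM in the Huh7 control and 18640 TPM after COP1-siRNA, a change of 0.45. The median over the nuclear members in that comparison was −0.01. Poly(A) selection was used for the libraries, and its part in these levels was not tested.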

How the data were processed

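RNA-seq libraries of the 2 lines were made with a poly(A), stranded kit, 1 library per line and siRNA, and libraries were grouped by their own labels. The submitters' processing notes name FastQC 0.11.7, Trimmomatic 0.38, HISAT2 2.1.0, StringTie 2.1.3b, edgeR and GRCh38. The authors deposited for each gene number a TPM value, normalized to a fixed total per library, an FPKM value, scaled for length and library depth, and a coverage value that is not scaled for depth. The name column holds no gene names, so symbols were taken by gene number from RefSeq (GRCh38.p14), where 44698 of 46427 numbers (96.3%) were found. Rows of 1 gene number were summed.

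Differences were computed as log2(TPM + 1), for genes with at least 1 TPM in 1 of the libraries compared, with 2-fold as the threshold. limma 3.58.1 in R 4.3.3 fitted line and siRNA over 15486 genes with at least 1 TPM in any library, with Benjamini-Hochberg adjustment at 0.05. Scaled coverage is the coverage divided by the most frequent ratio of coverage to TPM in the library. Python 3.11.15 with numpy 2.4.6 and pandas 2.3.3 was used. The computations were tested on simulated data with large changes, set equal in both lines, and little noise. That checks the code and does not show how many changes the fits could find in these libraries. How reads of overlapping genes and copies were divided is not given in the sources used here, and 27 members have such genes.

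The members and lists were chosen with earlier results of these data known. Genes named in the text were members past 2-fold in any comparison, the highest member and the largest changes of each complex, the SDH subunits, isoform families, and the core subunits of complexes I and III. The values of 1 member are not reported here. Others named were chosen after their values were seen, among them NDUFA5, NDUFS5, NDUFV3, NDUFA9, COX7C, ATP5F1D, ATP5PF and NDUFB11. Alternatives were FPKM, a pseudocount of 0.1, median-of-ratios scaling, no minimum TPM or 5 TPM, 1.5-fold, rows kept apart, members with copies left out, a mean-variance trend, and, added after seeing the data, scaled coverage and the windows of 1 Mb and 3 Mb.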

Additional observations from a re-analysis of the deposited data

Results flagged for a closer look

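In 4 members the change with COP1-siRNA had opposite signs in the lines, with 1 library per line and siRNA, and the difference between the lines was not tested. The change in Huh7 minus that in HepG2 was −0.92 for SDHC, −0.76 for NDUFV2, −0.59 for SDHA and −0.71 for UQCRHL on the log2 scale. The gap was kept in this list where it was at least 0.5. Read from depth-scaled coverage, the changes were 0.06 and −0.05 for SDHC, −0.05 and 0.05 for NDUFV2, and −0.07 and 0.03 for SDHA, while UQCRHL kept −0.48 and 0.23 at under 5 TPM. SDHC, SDHA, NDUFV2 and UQCRHL have copies elsewhere in the genome that can share reads, whose part was not tested.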

How the results depend on the processing

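The counts of members past 2-fold with COP1-siRNA and the median changes kept their values within 1.5 times or 0.1 log2 under all alternatives run. Between the lines, members past 2-fold lower in Huh7 with NC-siRNA numbered 10 with FPKM, 2 with median-of-ratios scaling and 21 at 1.5-fold, and those higher numbered 2 without members with copies or overlapping genes, since that leaves out NDUFS8 and NDUFV2. With COP1-siRNA, median-of-ratios scaling gave 5 higher and 3 lower and 1.5-fold gave 5 higher and 23 lower. The median difference turned to 0.12 with NC-siRNA and 0.0656 with COP1-siRNA under median-of-ratios scaling, since that scaling moves Huh7 against HepG2 by 0.34 and 0.33. With no minimum TPM, the members' median minus that of all genes turned to −0.0798 and −0.14, and the cause was not tested. With FPKM, limma called 1 member for siRNA, COX7A2, and 59 genes. Of the values of named members, counted once per alternative, 97 moved by over 0.1 log2 and 1023 did not. Some of them changed sign. With median-of-ratios scaling, the line difference of COX4I1 with NC-siRNA went from −0.31 to 0.03. In scaled coverage, the changes of SDHC went from −0.54 and 0.37 to 0.06 and −0.05. Of 16 named values that crossed 2-fold, 11 did so under median-of-ratios scaling. No paired analysis was possible because each condition had 1 library and so no replicate numbers to pair, beyond the limma fit, which compared the siRNAs within lines. Leaving out 1 library removed the comparisons that use it, kept the others as they were, and left limma no residual degree of freedom, so it gave no further values.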
